A study of Mus musculus with 55 samples.

Results

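The insulin-like growth factor (IGF) axis was followed through 10 cell populations sorted from mouse liver. The genes are the ligands Igf1 and Igf2, the signalling receptor Igf1r, and the binding proteins Igfbp1 to Igfbp7. They were taken by symbol, 1 row for each symbol, and are 10 of the 24478 symbols in the deposited table. RNA was sequenced from 55 libraries, 27 of normal liver and 28 of liver after partial hepatectomy (PH, surgical removal of part of the liver), to compare cell populations of the regenerating organ. All mice were of strain C57B/L6. The labels name no age, sex, transgene, pooling of animals or time after surgery. Each population was isolated by fluorescence-activated sorting. The normal groups were hepatocytes (HC, 4 libraries), clonal biliary epithelial cells (cBEC, 4), biliary epithelial cells (BEC, 4), non-progenitor ducts (NPD, 2), endothelial cells (EC, 2), liver sinusoidal endothelial cells (LSEC, 3), Kupffer cells (KC, 2), blood cells (2), hepatic stellate cells (HSC, 2) and Thy1 cells (2). The PH groups were HC (4 libraries), cBEC (2), BEC (2), NPD (2), EC (3), LSEC (5), KC (3), blood (2), HSC (3) and Thy1 (2). Nothing in the labels says that libraries of a group came from separate animals, so p-values measure the spread between these libraries, which may be technical.

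IGF1 made by the liver under growth hormone is the main source of circulating IGF1. IGF1 and IGF2 act through the receptor kinase IGF1R on growth, survival and metabolism. In blood and tissue fluid the ligands are held by binding proteins, of which IGFBP1 to IGFBP6 bind IGFs tightly, while IGFBP7 binds them weakly. The binding proteins prolong the life of the ligands, keep them from the receptor or deliver them to it, and several are cut by proteases that release the ligand. In liver, IGFBP1 is known as a hepatocyte protein that insulin represses and that is induced early in regeneration.

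Igfbp1 and Igfbp3 are neighbours on mouse chromosome 11, as are Igfbp2 and Igfbp5 on chromosome 1, in each case tail to tail. In the table's mm9 coordinates Igfbp1 spans chr11:7097789-7102549 on the plus strand and Igfbp3 chr11:7106095-7113926 on the minus strand, with 3545 bases between them. Igfbp2 spans chr1:72871960-72899045 on the plus strand and Igfbp5 chr1:72904638-72921439 on the minus strand, with 5592 bases between them. The members of each pair were highest in different populations, Igfbp1 and Igfbp2 in HC, Igfbp3 in HSC and Igfbp5 in NPD. Promoters are shown for Igfbp1 and its neighbour Igfbp3, and for Igfbp5 and Igfbp6, whose levels ran together over the populations. They run 5′ to 3′ on the gene's strand from 250 bases before to 50 bases after the start (RefSeq, build GRCm38.p6), and all 10 genes had a promoter entry. The windows are chr11:7197537-7197836 on the plus strand for Igfbp1, chr11:7213874-7214173 on the minus strand for Igfbp3, chr1:72874816-72875115 on the minus strand for Igfbp5 and chr15:102143936-102144235 on the plus strand for Igfbp6. Capitals mark matches to 3 motifs, searched on both strands. The motif CAAAACA and the motif TATTTTG are the parts of the insulin-response sequence described for Igfbp1, which FOXO factors bind. The motif GTTAAT is part of the site of HNF1, a hepatocyte factor.
Igfbp1: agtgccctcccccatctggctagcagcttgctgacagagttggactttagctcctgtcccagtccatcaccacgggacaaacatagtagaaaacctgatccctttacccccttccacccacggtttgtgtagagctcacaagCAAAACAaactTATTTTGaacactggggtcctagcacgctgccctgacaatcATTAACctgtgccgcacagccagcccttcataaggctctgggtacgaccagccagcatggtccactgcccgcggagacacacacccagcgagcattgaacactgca
Igfbp3: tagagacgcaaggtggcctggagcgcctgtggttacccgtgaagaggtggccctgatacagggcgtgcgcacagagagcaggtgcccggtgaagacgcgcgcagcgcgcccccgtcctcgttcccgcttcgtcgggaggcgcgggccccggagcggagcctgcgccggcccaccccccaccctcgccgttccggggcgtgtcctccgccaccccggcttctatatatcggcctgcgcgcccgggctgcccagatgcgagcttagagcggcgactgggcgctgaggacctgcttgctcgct
Igfbp5: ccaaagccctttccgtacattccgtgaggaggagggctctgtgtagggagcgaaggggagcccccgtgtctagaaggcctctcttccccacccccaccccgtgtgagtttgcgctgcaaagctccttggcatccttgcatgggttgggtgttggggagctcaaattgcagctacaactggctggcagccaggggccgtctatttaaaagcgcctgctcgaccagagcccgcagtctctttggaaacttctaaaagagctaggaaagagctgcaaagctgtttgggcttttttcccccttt
Igfbp6: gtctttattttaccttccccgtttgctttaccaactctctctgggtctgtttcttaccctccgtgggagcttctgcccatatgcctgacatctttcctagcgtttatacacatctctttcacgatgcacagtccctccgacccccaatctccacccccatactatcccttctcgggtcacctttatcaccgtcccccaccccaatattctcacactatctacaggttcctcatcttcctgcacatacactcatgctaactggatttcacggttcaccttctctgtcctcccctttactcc

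CAAAACA lay at -108 to -102 and TATTTTG at -97 to -91 of the Igfbp1 promoter, and GTTAAT lay on the minus strand at -56 to -51. None of the 3 motifs overlapped another. Among 14 promoter entries of the 10 genes, only that of Igfbp1 held any of the motifs. Of 32851 mouse promoter windows of this length, 6.28% held CAAAACA, 4.36% TATTTTG and 7.10% GTTAAT on either strand, and 27 windows (0.0822%) held all 3. A match describes the letters in this window and is not evidence of a binding site.

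Values are FPKM, fragments scaled to transcript length and library size, so levels can be compared between genes per length; read depth is unknown. Sums of FPKM per library ran from 624726 to 1203197, and replicates correlated at 0.919 to 0.996 on log2(FPKM + 1). Values in HC are rounded to 2 decimals, unlike those of other populations. Transcripts abundant in HC are often listed at exactly 0 elsewhere. Of 729 symbols with 100 to 1000 FPKM in normal HC, 29.5% of the values in the 47 other libraries were 0. For the 481 of these symbols with a mean of at least 10 FPKM outside HC the share was 5.87%, against 2.24% for 4543 symbols that were low in HC and at least 10 FPKM outside. Zeros outside HC are therefore given as listed at 0 for Igf1, Igfbp1, Igfbp2 and Igfbp4, which averaged 113 to 777 FPKM in normal HC. In sorted populations fewer cells of a type and less RNA per cell cannot be told apart.

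Marker lists of 6 genes each were read in every group. The duct list summed to 9348 to 21533 FPKM in cBEC and BEC, but to 2584 to 4692 in NPD. In NPD a list of mesothelial markers, genes of the liver's surface lining, summed to 3479 to 5692 with all 6 present, and in the Thy1 sort it summed to 912 to 2760. Kupffer markers summed to 539 to 838 FPKM in normal blood and 8146 to 14445 after PH, and the blood list to 4146 to 4366 and 533 to 985. No marker sum was tested. In the KC sort the LSEC list summed to 3162 to 4387 in normal liver and 266 to 479 after PH. The library titled PH cBEC 1 carries a treatment tag of normal and was kept as titled. Normal cBEC 1 stood apart from the other 3 normal cBEC libraries for several of the genes, with 462 FPKM of mesothelial markers against 141 to 180.

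In both conditions hepatocytes led for Igf1, Igfbp1 and Igfbp2, stellate cells for Igfbp3, and NPD for Igfbp5 and Igfbp6. For Igf1 the HC and KC libraries overlapped in both conditions. Sums of FPKM were also larger in normal HC (960918 to 1203197) than in normal KC (770745 to 774195), and levels were not corrected for this. Igf2 was highest in Thy1 cells and NPD in normal liver, whereas after PH the highest mean was that of HSC, which overlapped NPD. Igf1r was highest in the biliary sorts in both conditions, and Igfbp4 and Igfbp7 were spread over several populations. In normal liver 10 of 10 genes differed among the populations (limma moderated F test, adjusted p at most 7.04e-07 for Igf1), as did 93.3% of all genes tested. After PH 10 of 10 differed (adjusted p at most 0.000727 for Igf2), as did 90.1% of all genes. These shares are near those of all genes.

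**Figure D1:**
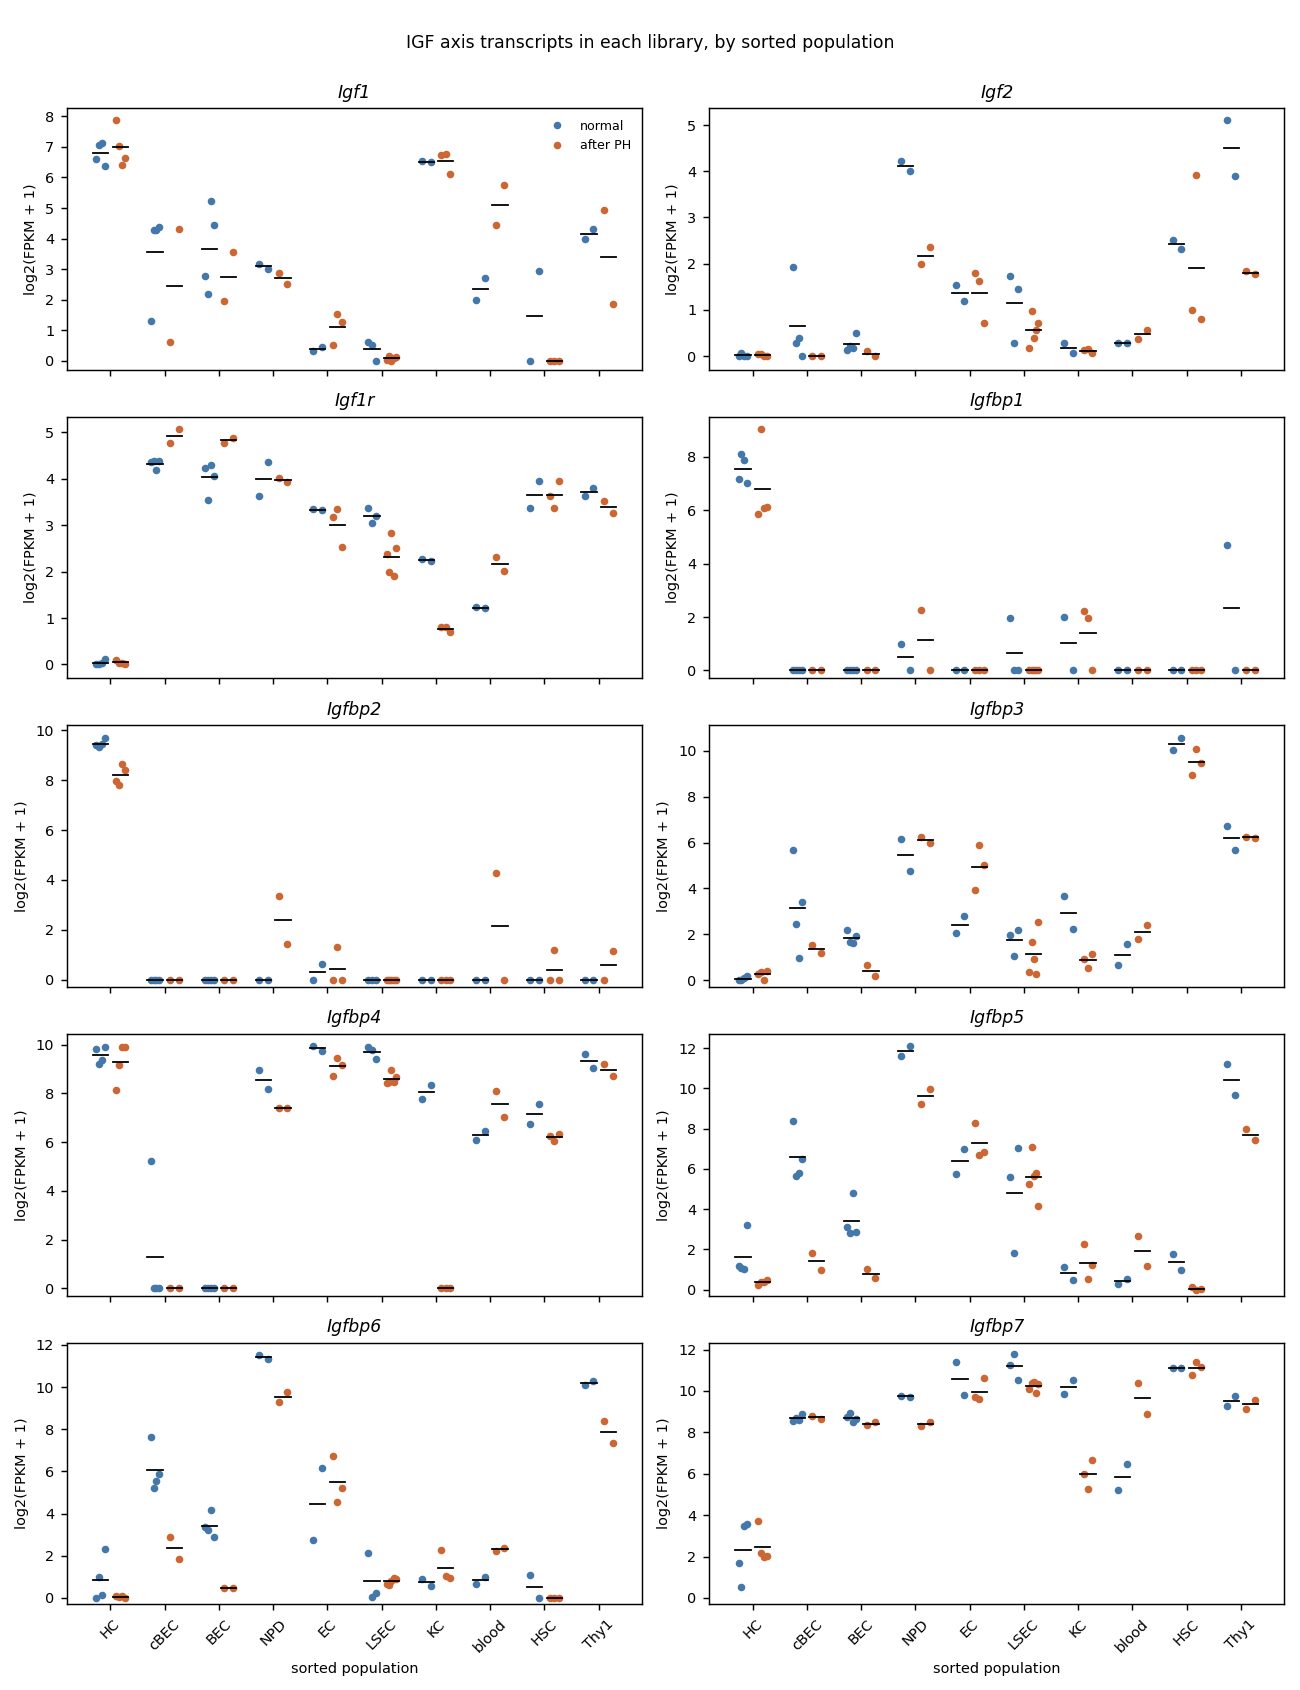
Level of each IGF axis gene in every library as log2(FPKM + 1) (y axis) by sorted population (x axis), blue for normal liver and orange after PH, with black bars at the group means. Igfbp1 and Igfbp2 stood high in HC alone, and Igfbp3 was highest in HSC. Igfbp5 and Igfbp6 were highest in NPD, with Thy1 next by mean, though Thy1 overlapped EC for Igfbp5 after PH.

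The response to PH was tested in each population against its own normal libraries, and the number of genes that could be tested differed because only genes with at least 1 FPKM in enough libraries were used. In HC 1 of 6 tested genes was called at an adjusted p under 0.05, Igfbp2, which fell (6.19% of all genes were called, 4.41% as lower). In NPD 4 of 9 fell, Igf2, Igfbp5, Igfbp6 and Igfbp7 (15.2% of all genes, 5.51% as lower). In KC 4 of 8 were lower, Igf1r, Igfbp3, Igfbp4 and Igfbp7 (36.8%, 20.1% as lower), and in blood 5 of 7 were higher, Igf1, Igf1r, Igfbp4, Igfbp6 and Igfbp7 (64%, 24.3% as higher). In BEC Igfbp3 and Igfbp6 fell, 2 of 6 (1.81%, 1.57% as lower), and in LSEC Igf1r and Igfbp4 fell, 2 of 5 (8.46%, 4.31% as lower).

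No gene of the axis was called in cBEC (0 of 6 by limma, 3 at an unadjusted p under 0.05, with 0.0681% of all genes called) or in EC (0 of 8, 2 unadjusted, 0.0249%). The same held for HSC (0 of 5, 1 unadjusted, 0.00853%) and Thy1 (0 of 8, 3 unadjusted, 0.00747%). Of all genes tested, 1346 of 13225 in cBEC and 1297 of 12064 in EC had an unadjusted p under 0.05. In HSC it was 995 of 11729 and in Thy1 2417 of 13389. In those 4 populations almost no gene of the genome passed, so a missed threshold there does not show that the levels were alike. Leaving out either PH library of NPD, either PH library of BEC or either normal blood library brought the count to 0, but leaves 1 library in that group, which is assumed to vary like the others. The changes themselves kept their direction: over all alternatives the log2 change was -2.20 to -1.74 for Igf2, -2.62 to -1.87 for Igfbp5, -2.12 to -1.62 for Igfbp6 and -1.45 to -1.26 for Igfbp7 in NPD, -4.33 to -2.48 for Igfbp6 in BEC, and 3.04 to 4.54 for Igfbp7 in blood. Leaving out normal LSEC 1, which leaves 2, also gave 0. Leaving out normal BEC 1 or 4 left 1 call in BEC, and leaving out normal LSEC 2 or PH LSEC 1, 2, 4 or 5 left 1 in LSEC. Across the populations the response itself differed for 8 of 10 genes by a limma moderated F test of 9 interaction terms (47.8% of all genes). By that test Igf1 (adjusted p = 0.174) and Igfbp1 (adjusted p = 0.547) were not called. The tests of Igf1, Igfbp1, Igfbp2 and Igfbp4 take in listed zeros outside HC.

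**Figure D2:**
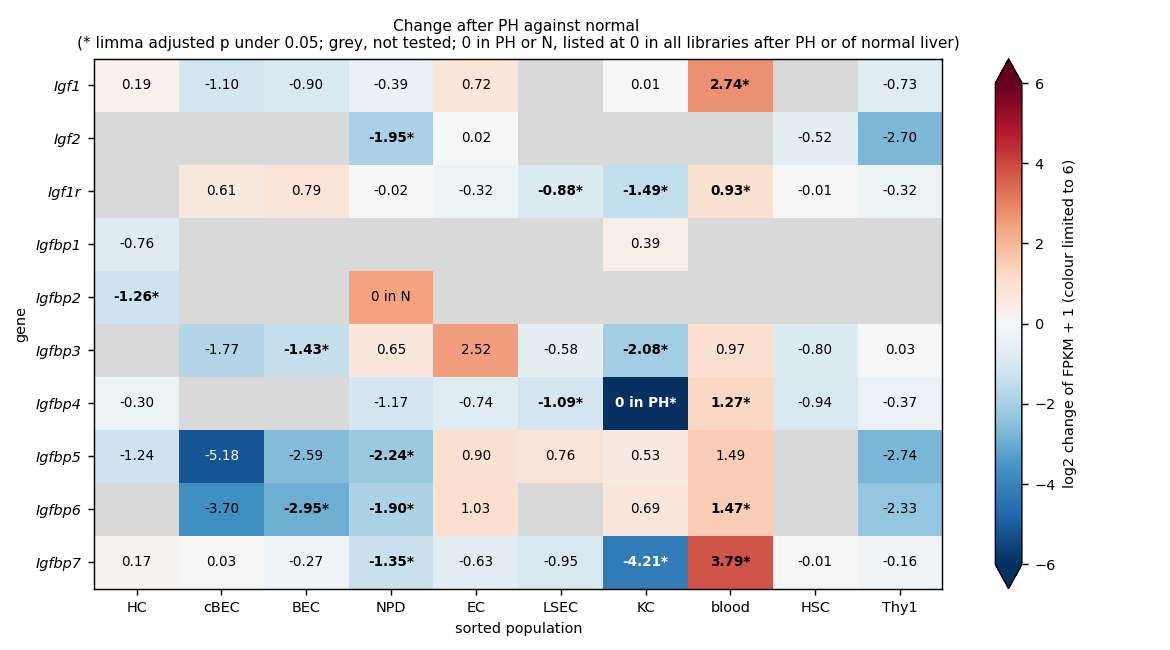
Change after PH against normal liver on the scale log2(FPKM + 1), for each gene (rows) in each population (columns); red is higher after PH, blue lower, grey not tested, and an asterisk marks a limma adjusted p under 0.05. KC and NPD carry 4 lower calls each and blood 5 higher calls, while cBEC, EC, HSC and Thy1 carry none.

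Igf1, the growth-hormone-driven ligand, was read at like levels in hepatocytes and in the Kupffer sort. In normal HC it stood at 97.2, 132, 138 and 82.8 FPKM, and in PH HC at 233, 129.8, 83.0 and 98.6. The groups overlapped, and the log2 change of 0.19 (SE 0.33) did not pass the test (adjusted p = 0.797). The KC sort held 92.1 and 89.0 FPKM in normal liver and 105, 107 and 67.5 after PH. HC and KC overlapped in both conditions, and both lay above every library of the other 8 populations. The 6 hepatocyte markers were all listed at 0 in every KC library. As zeros of hepatocyte-abundant genes outside HC, these cannot show that hepatocyte RNA was missing. Igfbp1 was listed at 3.06 FPKM in normal KC 1, 3.67 in PH KC 1 and 2.94 in PH KC 2. It was listed at 0 in normal KC 2 and PH KC 3. The part of hepatocyte RNA in the KC level of Igf1 was not tested.

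Lower in the order, Igf1 averaged 16.7 ± 2.77 FPKM (SD, n = 2) in normal Thy1 cells, 16.6 ± 15.2 (SD, n = 4) in BEC and 14.5 ± 8.72 (SD, n = 4) in cBEC, 3 groups that overlapped. Igf1 was at most 1.89 FPKM in any EC or LSEC library and was listed at 0 in all 3 PH HSC libraries, where normal HSC held 0 and 6.58. In blood it stood at 2.98 and 5.55 FPKM in normal liver and at 20.9 and 52.4 after PH. The blood groups did not overlap and Igf1 was higher after PH, with a log2 change of 2.74 (SE 0.50, adjusted p = 0.00874). The part of the Kupffer markers, whose sums in these libraries are given above, was not tested.

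Igf2, a ligand that is abundant before birth and low in adult rodent liver, was near 0 in hepatocytes, with at most 0.0400 FPKM in any HC library. It was highest in normal Thy1 cells, at 33.5 and 14 FPKM, and in normal NPD, at 17.7 and 15.2, which overlapped. In PH NPD it stood at 2.97 and 4.11 FPKM and had fallen by 1.95 on the log2 scale (SE 0.23, adjusted p = 0.0127). In PH Thy1 cells it stood at 2.6 and 2.4 FPKM, below both normal libraries, but the log2 change of -2.70 did not pass the test (SE 0.45, adjusted p = 0.130). In HSC 1 PH library held 14.1 FPKM beside 0.989 and 0.731 in the other two, against 4.72 and 3.98 in normal liver. Elsewhere Igf2 stayed at or under 2.81 FPKM.

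Igf1r, the receptor kinase, was all but missing from hepatocytes, with 0 to 0.0800 FPKM over the 8 HC libraries. It was the reverse of Igf1 in this respect, since every other population except KC and blood held 2.73 FPKM or more in each library. The biliary sorts were highest. Normal cBEC held 19.3, 19.8, 17.1 and 19.7 FPKM and PH cBEC 26.3 and 32.6. Normal BEC held 17.8, 10.6, 18.4 and 15.7 FPKM and PH BEC 26.1 and 28.4. All PH libraries lay above all normal ones in both sorts, yet neither change passed the test (cBEC log2 change 0.61, SE 0.17, adjusted p = 0.370; BEC 0.79, SE 0.23, adjusted p = 0.140). Among the PH groups cBEC and BEC overlapped each other and lay above every library of the other populations.

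In LSEC Igf1r stood at 9.33, 7.22 and 8.13 FPKM in normal liver and at 4.17, 2.99, 6.13, 2.73 and 4.68 after PH. It fell by 0.88 on the log2 scale (SE 0.24, adjusted p = 0.0496), a call close to the threshold that was lost in 12 of 16 alternatives. In KC it stood at 3.85 and 3.70 FPKM and after PH at 0.753, 0.738 and 0.615. It was lower by test, with a log2 change of -1.49 (SE 0.18, adjusted p = 0.00317). In blood it stood at 1.35 and 1.32 FPKM and after PH at 3.95 and 3.03, and was higher, with a log2 change of 0.93 (SE 0.20, adjusted p = 0.0135). EC, HSC, NPD and Thy1 cells held 4.73 to 19.4 FPKM in all libraries, with overlap of the groups in EC, HSC and NPD.

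Igfbp2 and Igfbp1 were the hepatocyte binding proteins. Igfbp2, a major binding protein of plasma, stood at 680.2, 648, 694 and 839 FPKM in normal HC and at 253, 226, 407 and 336 in PH HC. The groups lay far apart, and Igfbp2 fell by 1.26 on the log2 scale (SE 0.23, adjusted p = 0.0129), or from a mean of 715 ± 84.7 (SD, n = 4) to 305 ± 82.6 (SD, n = 4). In a single fit of all 20 groups the same change had an adjusted p of 0.0745. Outside HC Igfbp2 was listed at 0 in 40 of 47 libraries, and the highest of the rest was 18.5 FPKM in 1 PH blood library. Both PH NPD libraries listed it, at 9.32 and 1.69 FPKM, where normal NPD was listed at 0 (adjusted p = 0.0694).

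Igfbp1, the insulin-repressed binding protein whose promoter is shown above, stood at 142, 275, 237 and 130.2 FPKM in normal HC. In PH HC it stood at 57.5, 67.2 and 69.2 FPKM in 3 libraries and at 528 in library 2. The single high library lay above all normal ones and the other 3 lay below all of them. With all libraries the log2 change was -0.76 (SE 0.65, adjusted p = 0.540), and without PH HC 2 it was -1.52 (SE 0.30, adjusted p = 0.0292), so that the count in HC became 2 of 6. Outside HC Igfbp1 was also listed at 0 in 40 of 47 libraries, with 25.1 FPKM in 1 normal Thy1 library as the highest. The summed hepatocyte markers were 88958 to 94872 FPKM in normal HC. In PH HC they were 95640 in library 1 and 65048, 68257 and 64500 in libraries 2 to 4, below every normal one. PH HC 2, the library high in Igfbp1, also held 97.4 FPKM of the Kupffer list against 3.60 to 11.1 in the other 3. The part of these in the changes was not tested.

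Igfbp3, the main carrier of IGFs in plasma, marked the stellate sort. Normal HSC held 1037 and 1522 FPKM and PH HSC 492.9, 1083 and 702. In both conditions every HSC library lay above every library of the other populations. The PH and normal groups overlapped, and the log2 change of -0.80 did not pass the test (SE 0.38, adjusted p = 0.611). The 6 stellate markers summed to 4603 to 5058 FPKM in normal HSC and 3475 to 5515 after PH.

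Next came Thy1 cells and NPD, which overlapped in both conditions. Igfbp3 stood at 104 and 50.1 FPKM in normal Thy1 cells and at 75.3 and 72.7 after PH, and at 69.6 and 25.9 in normal NPD and 73.7 and 61.5 after PH. In the EC sort Igfbp3 stood higher after PH, with 3.17 and 5.87 FPKM in normal EC and 14.1, 58.4 and 31.3 in PH EC. All PH EC libraries were above both normal ones, but the log2 change of 2.52 (SE 0.55) did not pass the test (adjusted p = 0.230). The stellate list summed to 36.4 to 66.6 FPKM in normal EC and 35.3 to 57.4 in PH EC, and overlapped. The mesothelial list summed to 58.3 and 181 FPKM in normal EC and to 139 to 564 in PH EC, and its part was not tested. LSEC held 2.95, 1.08 and 3.48 FPKM of Igfbp3 in normal liver and 0.220 to 4.84 after PH, with overlap (log2 change -0.58, SE 0.52, adjusted p = 0.529).

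At low levels Igfbp3 fell in BEC, from 3.58, 2.15, 2.04 and 2.79 FPKM to 0.578 and 0.119, a log2 change of -1.43 (SE 0.28, adjusted p = 0.0477). That call was lost in 7 of 14 alternatives, among them those without normal BEC 1 or 4 and those without either PH library, which leave 1. Over all alternatives the log2 change was -2.79 to -0.86. In KC Igfbp3 stood at 11.8 and 3.63 FPKM and after PH at 0.921, 0.451 and 1.17, a log2 change of -2.08 (SE 0.47, adjusted p = 0.0214). The KC call was lost without normal KC 1 (adjusted p = 0.0777), PH KC 1 or PH KC 2. In hepatocytes Igfbp3 was at most 0.320 FPKM. Markers of several other cell types were also lower in BEC after PH: the LSEC list summed to 78.0 to 310 FPKM in normal BEC and 1.94 to 5.13 after PH, the EC list to 25.3 to 102 and 0.902 to 1.44, and the Kupffer list to 74.9 to 300 and 0.377 to 3.15. Their part in the BEC changes of Igfbp3, and of Igfbp5 and Igfbp6 given further on, was not tested.

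Igfbp4, a binding protein that is cut by the protease PAPP-A, was high in endothelial cells, hepatocytes and Thy1 cells and listed at 0 in the biliary sorts. Normal EC held 975 and 862 FPKM, normal LSEC 957, 865 and 676, normal HC 913, 584, 649 and 963, and normal Thy1 cells 779 and 529.7. Neighbours in that order overlapped, while both EC libraries lay above both Thy1 libraries. At the other end, all 6 BEC libraries, both PH cBEC libraries and 3 of 4 normal cBEC libraries listed Igfbp4 at 0, and normal cBEC 1 held 36.1 FPKM. As Igfbp4 is abundant in hepatocytes, these zeros are reported as listed.

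After PH the LSEC libraries held 343, 356, 498, 354 and 402 FPKM of Igfbp4, all below the normal ones. It fell by 1.09 on the log2 scale (SE 0.20, adjusted p = 0.0108). That call was lost in 3 of 15 alternatives, among them the fit without normal LSEC 1 (adjusted p = 0.0622). PH EC held 415, 694 and 574 FPKM, also below both normal libraries, without passing the test (log2 change -0.74, SE 0.26, adjusted p = 0.398). PH NPD held 169 and 165 FPKM against 495 and 287 (log2 change -1.17, SE 0.30, adjusted p = 0.0583). HC showed no shared direction, with 283, 571, 951 and 943 FPKM after PH (log2 change -0.30, SE 0.39, adjusted p = 0.714). The LSEC marker list summed to 4794 to 9594 FPKM in normal LSEC and to 1479 to 5351 in PH LSEC, and its part in the fall was not tested.

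Igfbp5 and Igfbp6 were highest in the same populations, and Igfbp5 in normal NPD had the highest group mean of the 10 genes. IGFBP5 binds extracellular matrix, and IGFBP6 prefers IGF2. Igfbp5 stood at 3157 and 4366 FPKM in normal NPD and at 604 and 1017 after PH. It fell by 2.24 on the log2 scale (SE 0.34, adjusted p = 0.0199). Igfbp6 stood at 2955 and 2569 FPKM in normal NPD and at 632 and 856 after PH. It fell by 1.90 (SE 0.25, adjusted p = 0.0158), and neither gene's groups overlapped.

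Thy1 cells came second by mean for both genes. For Igfbp5 after PH they overlapped EC, where PH EC 1 held 311 FPKM. Igfbp5 stood at 2344 and 816 FPKM in normal Thy1 cells and at 251 and 169 after PH. Igfbp6 stood at 1107 and 1236 FPKM and at 335 and 160.3 after PH. The groups did not overlap, but neither change passed the test (Igfbp5 log2 change -2.74, SE 0.60, adjusted p = 0.160; Igfbp6 -2.33, SE 0.47, adjusted p = 0.148). The Thy1 or portal fibroblast list summed to 1636 to 1798 FPKM in normal Thy1 libraries and 491 to 1150.5 after PH, and the EC list to 891 to 896 and 1199 to 2346. The duct list was 865 and 5104 FPKM in the normal libraries and 852 and 1336 after PH. The part of these shifts was not tested.

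The biliary sorts held both genes at lower levels. Igfbp5 stood at 336, 48.9, 55.3 and 87.5 FPKM in normal cBEC and at 2.52 and 0.989 after PH. Igfbp6 stood at 196, 35.7, 45.4 and 58.4 FPKM in normal cBEC and at 6.33 and 2.62 after PH. With all libraries neither passed the test (Igfbp5 log2 change -5.18, SE 0.83, adjusted p = 0.211; Igfbp6 -3.70, SE 0.72, adjusted p = 0.310). Without normal cBEC 1, the highest library, both were lower by test (Igfbp5 -4.57, adjusted p = 0.00168; Igfbp6 -3.18, adjusted p = 0.0142), and the count for cBEC became 2.

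In BEC Igfbp6 fell from 9.43, 8.36, 16.8 and 6.45 FPKM to 0.389 and 0.379, a log2 change of -2.95 (SE 0.34, adjusted p = 0.00703). Igfbp5 stood at 7.72, 5.97, 26.7 and 6.25 FPKM and at 1.06 and 0.470 after PH, just outside the threshold (log2 change -2.59, SE 0.53, adjusted p = 0.0537). All PH libraries of BEC lay below all normal ones for both genes.

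Mesothelial markers moved with Igfbp5 and Igfbp6. The 6-gene sum was 5433 to 5692 FPKM in normal NPD and 3479 to 3902 after PH, and 1627 to 2760 in normal Thy1 cells and 912 to 1421 after PH. In cBEC it was 462 FPKM in library 1, 141 to 180 in the other 3 normal libraries and 61.5 to 78.9 after PH, and in BEC 67.1 to 117 and 45.9 to 54.9. In NPD all 6 markers averaged over 10 FPKM in both conditions, whereas in PH BEC Krt14, Lrrn4, Upk3b and Wt1 were under 1 FPKM in every library. The NPD markers did not all go 1 way: Gpm6a averaged 1177 FPKM in normal and 469.6 in PH NPD, Wt1 123 and 120.1, and Krt14 19.1 and 109. The part of the mesothelial content in the falls was not tested.

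**Figure D3:**
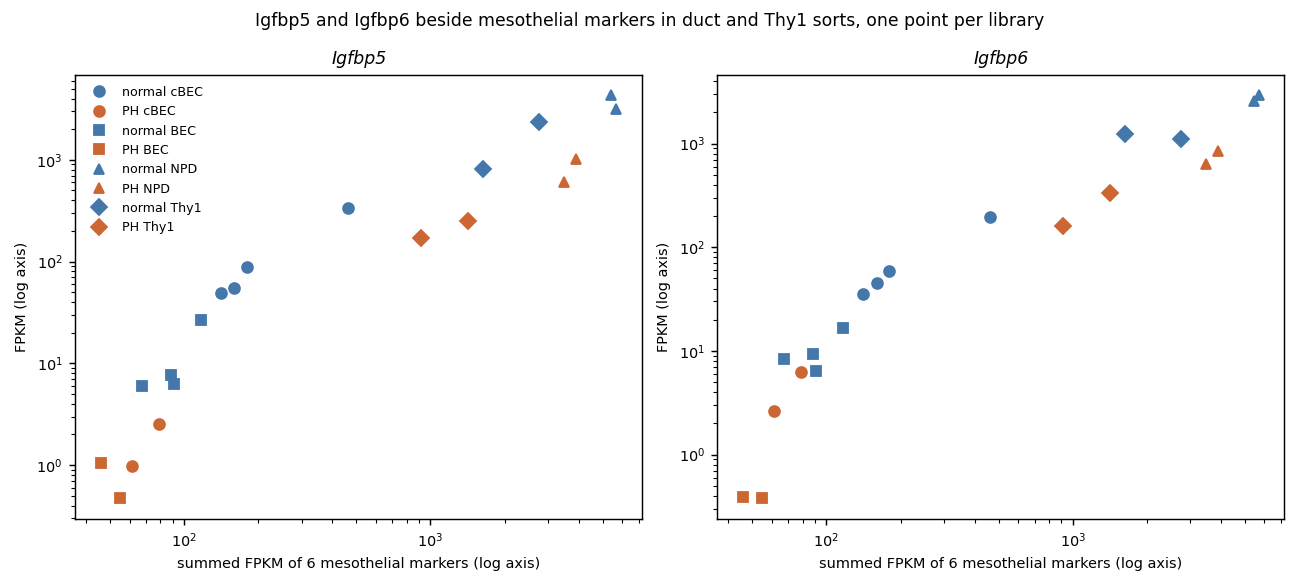
Igfbp5 (left) and Igfbp6 (right) in FPKM (y axis, log) against the summed FPKM of 6 mesothelial markers (x axis, log), 1 point for each library of cBEC, BEC, NPD and Thy1, blue for normal liver and orange after PH. Normal NPD stood at the top right and PH BEC at the bottom left, and normal cBEC 1 lay at 462 FPKM of markers, apart from the other cBEC libraries.

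Away from ducts and Thy1 cells, Igfbp5 was also present in endothelial cells. It stood at 52.5 and 127 FPKM in normal EC and 311, 100.8 and 114 in PH EC, and at 47.7, 2.51 and 132 in normal LSEC and 16.6 to 134 in PH LSEC, with overlap in both. Igfbp6 was present in EC, at 5.77 and 70.9 FPKM in normal liver and 104, 22.5 and 35.8 after PH, and was at most 3.38 in LSEC. Stellate cells held almost none of either, with at most 2.46 FPKM of Igfbp5 and 1.11 of Igfbp6. In HC Igfbp5 stood at 1.24, 1.07, 1.03 and 8.25 FPKM in normal liver and at 0.18, 0.28, 0.32 and 0.39 after PH, without overlap and without passing the test (log2 change -1.24, SE 0.44, adjusted p = 0.137).

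Igfbp7, a secreted protein of vessel walls and matrix, was above 300 FPKM in every library outside hepatocytes, normal blood and PH KC. Hepatocytes held 0.430 to 12.1 FPKM. Normal LSEC held 2448, 3490.1 and 1487 FPKM, normal HSC 2209.9 and 2193, normal EC 2683 and 897, and normal KC 914 and 1453. Adjacent groups in that order overlapped. HSC kept 1720.0, 2659 and 2276 FPKM after PH, and a log2 change of -0.01 (SE 0.28, adjusted p = 0.993). The 12 biliary libraries were also steady, between 324 and 485 FPKM.

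LSEC stood at 1093, 1341, 1394, 955 and 1309.8 FPKM of Igfbp7 after PH, below all normal libraries, with an adjusted p of 0.0632 (log2 change -0.95, SE 0.28). In NPD it fell from 876 and 849 FPKM to 316 and 360.1, a log2 change of -1.35 (SE 0.20, adjusted p = 0.0181). In the same NPD libraries the EC list summed to 146 to 171 FPKM in normal liver and 47.7 to 57.5 after PH, the LSEC list to 29.8 to 178 and 17.6 to 26.9, and the Kupffer list to 104 to 248 and 5.83 to 9.23, and their part was not tested. The largest shifts were in KC and blood and pointed in opposite directions. KC held 61.9, 37.6 and 99.5 FPKM after PH, a log2 change of -4.21 (SE 0.43, adjusted p = 0.00226). Blood went from 35.9 and 88.7 FPKM to 1336 and 473, a log2 change of 3.79 (SE 0.66, adjusted p = 0.00739).

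In KC the lower genes ran with markers of other cell types. Igfbp4 stood at 218 and 325 FPKM in normal KC and was listed at 0 in all 3 PH libraries (adjusted p = 0.000239), which as a zero of a hepatocyte-abundant gene gives no fold. Restricted to genes under 10 FPKM in hepatocytes, Igf1r, Igfbp3 and Igfbp7 still passed the test in KC. All 6 LSEC markers were present in both conditions, their sum was 3162 to 4387 FPKM in normal KC and 266 to 479 in PH KC, and the EC list summed to 1096 to 1360 and 285 to 508. The Kupffer list was 14261 to 15840 FPKM in normal KC and 23920.3 to 25461 after PH. The stellate list summed to 59.5 to 124 FPKM in normal KC and 27.6 to 45.5 after PH. Igfbp3, highest in HSC, stood at 11.8 and 3.63 FPKM in normal KC, above the 1.08 to 3.48 of normal LSEC. The part of endothelial or stellate content in the lower Igf1r, Igfbp3, Igfbp4 and Igfbp7 was not tested.

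In blood the 5 higher genes ran with markers of resident liver cells. Igfbp4 stood at 67.1 and 87.6 FPKM in normal blood and at 268 and 128 after PH (log2 change 1.27, SE 0.39, adjusted p = 0.0410). That call was lost in 6 of 11 alternatives, which include fits that leave 1 library in a group. Igfbp6 stood at 0.571 and 1.0 FPKM and at 3.65 and 4.21 after PH (log2 change 1.47, SE 0.22, adjusted p = 0.00433). The LSEC list summed to 709 to 817 FPKM in normal blood and 2364 to 5429 after PH, and the EC list to 265 to 283 and 823 to 1538. The median log2 change of all genes in blood was -0.31. All 7 tested genes of the axis had a positive change, but the filter favoured that sign for some. Igfbp5 (0.210 and 0.458 FPKM in normal blood, 5.25 and 1.23 after PH) reached 1 FPKM only after PH. Igfbp3 (0.575 FPKM) and Igfbp6 were under 1 FPKM in normal blood 1, so both were tested only because PH libraries reached it. The shared direction is therefore partly set by the filter, and the Igfbp6 call has the same limit. The part of Kupffer and endothelial content was not tested.

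**Figure D4:**
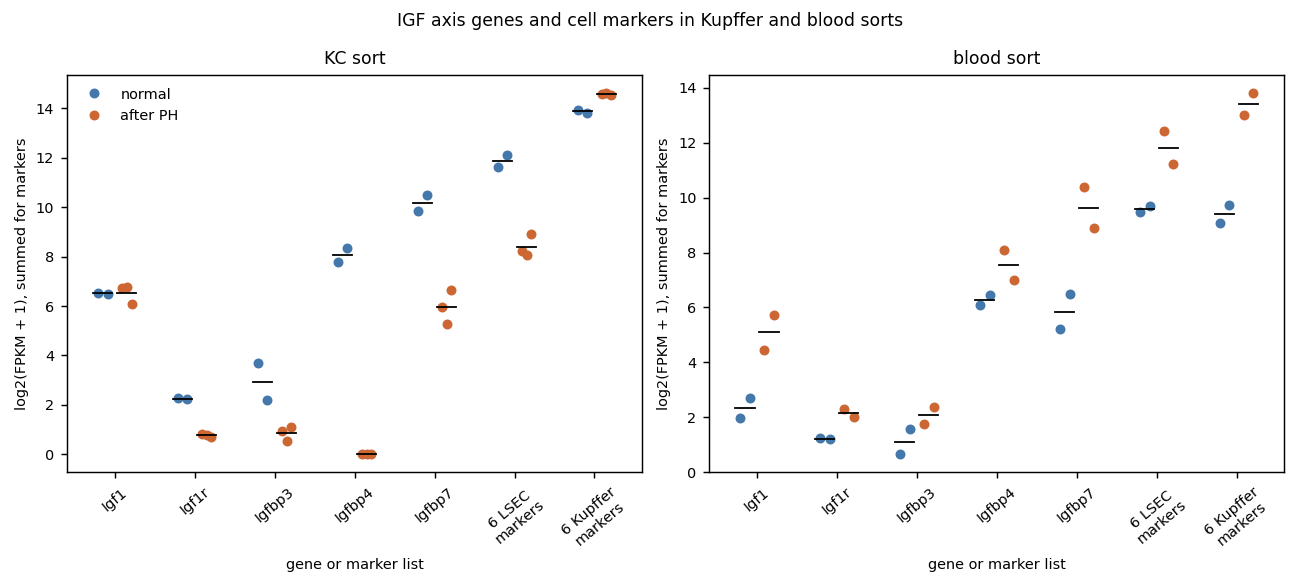
Levels of 5 IGF axis genes and the summed LSEC and Kupffer markers as log2(FPKM + 1) (y axis) in each KC library (left) and each blood library (right), blue for normal liver and orange after PH, with black bars at the means. Igf1r, Igfbp3, Igfbp4 and Igfbp7 and the LSEC markers were lower in KC after PH, and in blood all 5 genes and both marker sums stood higher.

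The make-up of the IGF-binding pool, taken as the share of each gene in the summed FPKM of Igfbp1 to Igfbp6, differed by population. Hepatocytes held 45.5% Igfbp4, 42.3% Igfbp2 and 12% Igfbp1 in normal liver and 56.8%, 28.3% and 14.8% after PH (means, n = 4). Stellate cells held 89.8% Igfbp3 in normal liver and 90.3% after PH. Igfbp4 made 92.4% of the pool in normal LSEC and 87.5% in normal EC, and 86.9% and 68.1% after PH. In NPD Igfbp5 made 53.8% and Igfbp6 39.8% in normal liver, and 44.5% and 41.6% after PH. Thy1 cells went from 42.4% Igfbp5, 36.2% Igfbp6 and 19% Igfbp4 to 20.3%, 23.1% and 49.1%. These shares were not tested, and outside HC they take in listed zeros of Igfbp1 and Igfbp2.

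The summed level ranged more widely than the shares. It was 6963 ± 404 FPKM (SD, n = 2) in normal NPD and 1797 ± 432 (SD, n = 2) after PH, and 3496 ± 1222 and 1037 ± 298 (SD, n = 2 each) in Thy1 cells. In HC it was 1693 ± 193 in normal liver and 1174 ± 389 after PH (SD, n = 4 each). The lowest sums were in PH BEC, at 1.5 ± 0.748 FPKM (SD, n = 2), PH KC, at 6.87 ± 4.73 (SD, n = 3), and PH cBEC, at 7.81 ± 4.18 (SD, n = 2). Sums in BEC, cBEC and KC take in listed zeros of Igfbp4, and shares there are of small sums.

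**Figure D5:**
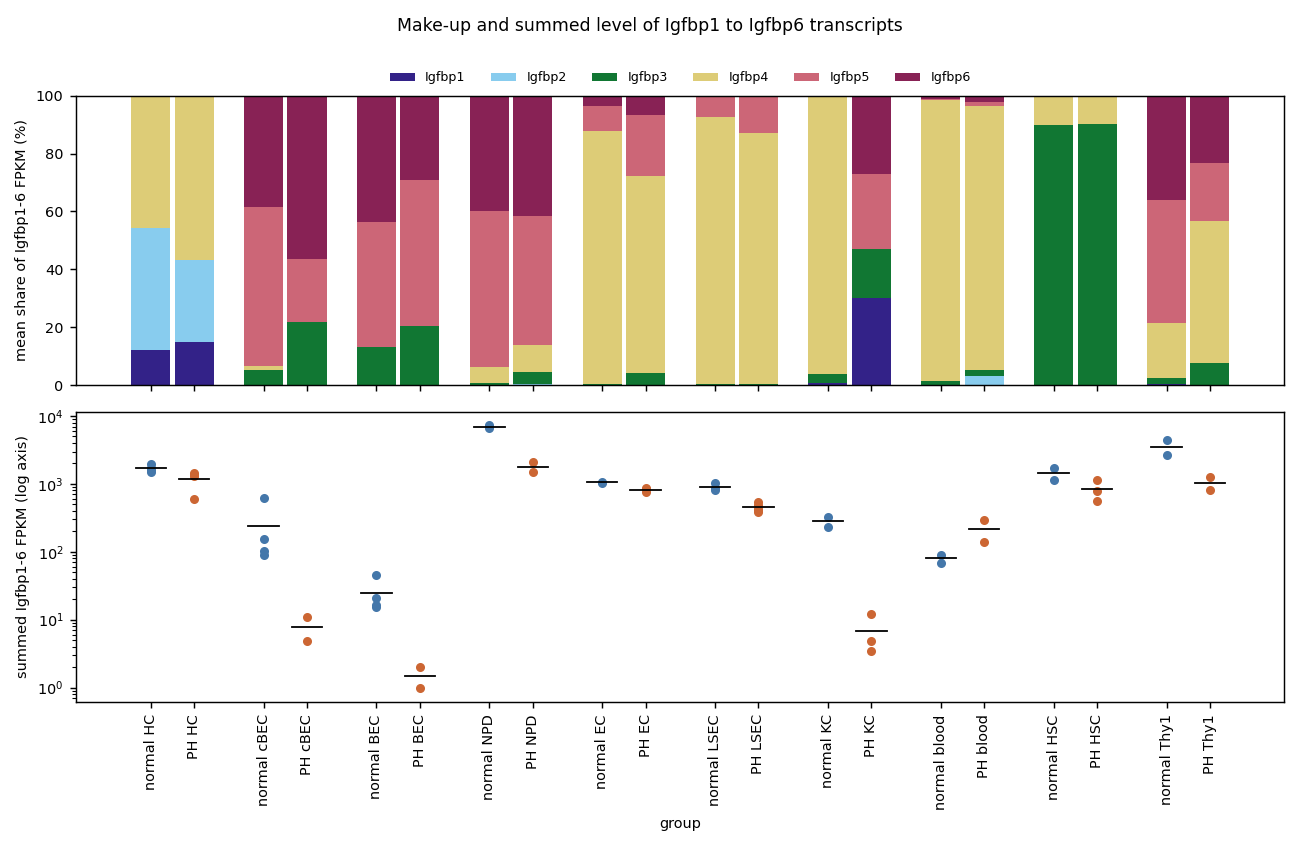
Mean share of each of Igfbp1 to Igfbp6 in their summed FPKM (top, percent) and the sum itself (bottom, log axis, 1 point for each library, black bars at means) for normal and PH groups of each population. Igfbp3 made 89.8% of the pool in normal HSC and Igfbp4 92.4% in normal LSEC, while the sum was lowest in PH BEC.

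Neighbouring normal populations were compared directly. Between EC and LSEC 0 of 7 tested genes differed (limma, 1 at an unadjusted p under 0.05, 0.00843% of all genes called). Of all genes tested, 1097 of 11868 had an unadjusted p under 0.05. Igfbp6 had the largest difference, 5.77 and 70.9 FPKM in EC against 0.0270 to 3.38 in LSEC (log2 difference 3.67, SE 1.21, adjusted p = 0.450). Between HSC and Thy1 cells 5 of 8 genes differed, against 9.55% of all genes (2.4% higher and 7.15% lower in HSC). Igfbp3 and Igfbp7 were higher in HSC, by 4.10 (SE 0.46, adjusted p = 0.0149) and 1.58 (SE 0.30, adjusted p = 0.0428) on the log2 scale. Igfbp4, Igfbp5 and Igfbp6 were higher in Thy1 cells, with log2 differences of -2.19 (adjusted p = 0.0434), -9.06 (0.00541) and -9.65 (0.00295) for HSC against Thy1. Normal Thy1 libraries held 1627 to 2760 FPKM of the mesothelial list and 865 to 5104 of the duct list. Normal HSC held 0.864 to 3.54 and 0.292 to 31.5 of these. The EC list summed to 891 to 896 in normal Thy1 and 65.5 to 319 in normal HSC, and the LSEC list to 749 to 1262 and 160 to 976. The part of these 4 lists in the differences was not tested. Leaving out either Thy1 library, which leaves 1, left no call, and without normal HSC 1 there were 3. Over all alternatives the log2 difference stayed between -9.82 and -8.30 for Igfbp5 and between -11.72 and -9.02 for Igfbp6. The calls of Igfbp4 and of Igfbp7 were each lost in 5 of 10 alternatives.

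Between cBEC and NPD 5 of 8 genes differed, against 29.7% of all genes (11.2% lower in cBEC), and all 5 were lower in cBEC. They were Igf2 (log2 difference -3.47, SE 0.54, adjusted p = 0.00247), Igfbp5 (-5.28, SE 0.79, 0.00471), Igfbp6 (-5.37, SE 0.66, 0.0019) and Igfbp7 (-1.07, SE 0.21, 0.00654), and Igfbp4, which 3 of 4 cBEC libraries listed at 0 (adjusted p = 0.0312). The Igfbp4 call was lost in 7 of 12 alternatives, which include fits that leave 1 NPD library. Without normal cBEC 1 the count was 7. Igf1r, at 17.1 to 19.8 FPKM in cBEC and 11.3 and 19.4 in NPD, overlapped. The mesothelial list summed to 141 to 462 FPKM in normal cBEC and 5433 to 5692 in normal NPD. The duct list summed to 9348 to 19705 and 2584 to 3795. Their part in these differences was not tested.

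The other genes of the pathway came from a list of 38 receptors, growth hormone signalling genes, IGFBP proteases and their inhibitors, and insulin signalling genes. In HC 1 of 26 tested rose and 4 fell after PH, where 6.19% of all genes were called. Ghr, the growth hormone receptor, averaged 232 FPKM in normal and 114 in PH HC (log2 change -1.02, adjusted p = 0.0193). Stat5b, which carries its signal to Igf1, fell by 1.19 (SE 0.22, adjusted p = 0.0120), and Cish, a feedback inhibitor and STAT5 target, rose by 2.02 (SE 0.50, adjusted p = 0.0433). Foxo3, a transcription factor restrained by insulin signalling, fell by 1.2 (SE 0.25, adjusted p = 0.0223). The Cish call was lost in 9 of 15 alternatives and the Foxo3 call in 3 of 15. The median log2 change was -0.38 over the tested list and -0.07 over all genes. Of the 5 calls, 1 was left without normal HC 2, normal HC 3 or PH HC 4, 2 without PH HC 3, and 3 without normal HC 1 or 4.

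In NPD 5 of 31 pathway genes rose and 1 fell, where 15.2% of all genes were called. Ide, which degrades insulin, rose by 1.71 (SE 0.18, adjusted p = 0.0105), and Adam12, a protease that cuts IGFBP3 and IGFBP5, rose by 2.17 (SE 0.30, adjusted p = 0.0168). Prlr, the prolactin receptor, fell by 1.45 (SE 0.22, adjusted p = 0.0188). The median log2 change of the list was -0.03, and 0.09 over all genes. Leaving out either PH NPD library left no call, and leaving out normal NPD 1 or 2 gave 15 or 12. In LSEC 3 of 26 rose and 1 fell, where 8.46% of all genes were called. They included Stc2, an inhibitor of PAPP-A, which averaged 0.323 FPKM in normal and 21.5 in PH LSEC (log2 change 3.98, SE 0.40, adjusted p = 0.00125). Insr, the insulin receptor, averaged 44.1 FPKM in normal and 111 in PH LSEC (log2 change 1.60, SE 0.41, adjusted p = 0.0412). The Insr call was lost in 10 of 15 alternatives. The list's median was -0.05, against -0.03 over all genes. The count was 1 without normal LSEC 1 or PH LSEC 1, and 2 without normal LSEC 2, PH LSEC 3 or PH LSEC 5.

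In KC 1 of 23 pathway genes was higher and 9 were lower, a share near the 36.8% called among all genes. Adamts1, a matrix protease, averaged 30.6 FPKM in normal and 3.53 in PH KC (log2 change -2.88, adjusted p = 0.00382), Grb10, an adaptor that binds the receptor, 9.75 and 1.63 (log2 change -2.05, adjusted p = 0.00263), and Cish 6.53 and a listed 0 (adjusted p = 0.00135). In blood 10 of 24 were higher and 4 lower, a share below the 64% called among all genes. Akt1, a kinase downstream of the receptor, averaged 11.1 FPKM in normal and 184 in PH blood (log2 change 3.94, adjusted p = 0.000766), Furin 4.40 and 51.2 (3.29, adjusted p = 0.00102) and Insr 3.55 and 33.1 (2.73, adjusted p = 0.00841). The list's median was -0.47 in KC and 0.22 in blood, against -0.04 and -0.31 over all genes. Without either normal blood library the count was 3. In KC it was 4 or 3 without normal KC 1 or 2, 6 without PH KC 2 and 16 without PH KC 3. The marker shifts of both sorts apply here too. By limma 0 of the tested pathway genes passed in cBEC (27 tested, 3 at an unadjusted p under 0.05), BEC (26, 4), EC (28, 5), HSC (28, 3) or Thy1 cells (32, 12). In BEC 2097 of 12851 genes had an unadjusted p under 0.05, and the counts for the other sorts are given above.

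Genes with the most similar pattern were taken as those with the highest Pearson correlation of group means of log2(FPKM + 1) over the 20 groups, among named genes averaging 10 FPKM or more in some group. For Igfbp2 these were the hepatocyte genes Cps1 (0.994), Gldc (0.989) and Gjb2 (0.984), and for Igfbp1 Cyp2c50 (0.978), A1cf (0.977) and Cyp2c54 (0.976). For Igfbp6 they were Upk3b (0.991), itself on the mesothelial list, Fmod (0.990) and Rspo1 (0.988), and for Igfbp5 Cldn15 (0.967), Fndc1 (0.957) and Spock2 (0.948). For Igfbp3 they were Afap1l2 (0.965), Col5a1 (0.965) and Gucy1a3 (0.963), and for Igf2 Glt8d2 (0.942), Ogn (0.934) and Cpz (0.932). For Igf1r they were Erbb2 (0.980), Lats1 (0.978) and Aff4 (0.974). The closest genes were less alike for Igf1, with Rnf149 (0.920), Bco2 (0.910) and Slc16a7 (0.906), and for Igfbp4, with Mgll (0.928), Cyb5a (0.891) and Abat (0.885). For Igfbp7 they were 3 protocadherin gamma rows, Pcdhgb2 (0.974), Pcdhgb4 (0.972) and Pcdhga3 (0.972), which share exons and are uncertain. Within the axis, Igfbp5 and Igfbp6 correlated at 0.925 and Igfbp1 and Igfbp2 at 0.928. The 20 points share libraries and depth between genes, and hepatocyte groups weigh heavily on these values.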

How the data were processed

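RNA-seq values came from 1 deposited table of 55 libraries, given as FPKM by the authors, going by its name, since its headers give no unit. Per the submitters' processing notes, CASAVA 1.8.2, Bowtie 1.0.0 and build mm9 were used; the counting tool is not given in the sources used here. The table has 36141 rows, and where a symbol had several, the one with the largest average across libraries stood for it. Depth is unknown, so no counting interval is given.

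Groups followed the sample titles. limma 3.58.1 (R 4.3.3, trend and robust, two-sided) was run on log2(FPKM + 1), which understates the change of low genes, keeping genes that reached 1 FPKM in a number of libraries no smaller than the smaller group. Benjamini-Hochberg adjustment ran over all genes tested. The fits were tested on simulated data. Figures used Python 3.11.15 and matplotlib 3.10.9.

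The members, marker lists and pathway list were chosen with earlier results of these data known. All 10 members are named, and of the pathway list at most 3 genes per population, the largest changes of at least 1 (log2) with adjusted p under 0.05 and no overlap; Ghr was named after its values were seen.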

Additional observations from a re-analysis of the deposited data

Results flagged for a closer look

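In 31 groups of 4 or 5 libraries in which a gene was examined, 10 held a library far from the rest of its group, where chance at 1 in 20 gives about 1.55. Of these, 5 were the same library, normal cBEC 1, with Igf1 at 1.48 FPKM (the other 3 at 18.4 to 19.7), Igf2 at 2.81 (0 to 0.311), Igfbp4 at 36.1 (listed at 0), Igfbp5 at 336 (48.9 to 87.5) and Igfbp6 at 196 (35.7 to 58.4). Normal cBEC 3 held 17.1 FPKM of Igf1r against 19.3 to 19.8. In hepatocytes PH HC 2 held 528 FPKM of Igfbp1 against 57.5 to 69.2, PH HC 1 held 12.1 of Igfbp7 against 2.95 to 3.58, and normal HC 4 held 8.25 of Igfbp5 against 1.03 to 1.24. Normal BEC 3 held 26.7 FPKM of Igfbp5 against 5.97 to 7.72.

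For 8 of 10 genes the response to PH differed among the 10 populations by the limma interaction test, as for 47.8% of all genes. The tests of Igfbp2 and Igfbp4 take in listed zeros outside HC, for Igfbp4 in all 3 PH KC libraries. The adjusted p was 3.06e-07 for Igfbp4, 6.66e-07 for Igfbp7, 9.54e-07 for Igf1r, 7.87e-05 for Igfbp6, 0.000295 for Igfbp5, 0.00396 for Igfbp3, 0.00506 for Igfbp2 and 0.0172 for Igf2.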

How the results depend on the processing

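The counts of called genes moved in most populations with few libraries, while 10 of 10 genes differed among populations in normal liver and after PH under every alternative run. A single fit of all groups gave 0 in HC (1 in the reported fit), 2 in cBEC (0), 1 in BEC (2), 2 in NPD (4), 1 in LSEC (2) and 2 in Thy1 (0). In BEC no filter gave 1 and quantile normalization 1. In LSEC quantile or upper-quartile scaling, a pseudocount of 0.1, leaving the filter off, and keeping only genes under 10 FPKM in hepatocytes gave 1 each. That restriction gave 3 in blood (5), where it leaves fewer genes to test. No filter gave 3 between HSC and Thy1 (5). Apart from the restriction, the cause was not tested.

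Replicate numbers were not treated as pairs in the reported fits. Same-numbered deviations correlated at -0.645 to 0.501 in HC, -0.231 to -0.00927 in LSEC and -0.158 to 0.132 in the other populations. Libraries of different numbers were not compared, so these values cannot decide whether samples were paired. With a replicate block the count was 2 in cBEC (0), 4 in BEC (2), 0 in LSEC (2), 3 in Thy1 (0) and 3 between cBEC and NPD (5). The block also turned Igf1 in BEC from -0.90 to 0.28 on the log2 scale, neither past the test.

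Leaving out each library gave 1 to 2 genes in HC, 0 to 2 in cBEC, 0 to 3 in BEC, 0 to 6 in NPD, 0 to 2 in LSEC, 3 to 4 in KC, 0 to 7 in blood, and 0 in EC, HSC, Thy1 and between EC and LSEC. It gave 0 to 5 between HSC and Thy1 and 4 to 7 between cBEC and NPD. For differing responses it gave 7 to 9 genes, and for differences among populations 10; leaving out libraries for these F tests was chosen after seeing the data. Of changes larger than their SE, 4 that had not passed the test turned sign: Igfbp3 in NPD (-0.048 without normal NPD 2, to 1.35), Igfbp7 in EC (-1.42 to 0.16, the latter without normal EC 1), Igfbp7 between EC and LSEC (-1.38 to 0.20, the latter without normal EC 2) and Igf1r between cBEC and NPD (-0.033 without normal NPD 1, to 0.69).

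Quantile normalization moved the median log2 change of all genes from -0.11 to 0.05 in cBEC, -0.12 to 0.03 in BEC, 0.09 to -0.02 in NPD, -0.04 to 0.09 in KC and -0.31 to -0.14 in blood, and upper-quartile scaling from 0.02 to -0.08 in EC. No called gene changed direction under either. Groups of 2 libraries limit every duct, EC, KC, blood, HSC and Thy1 result.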
